A study of Mus musculus with 30 samples.

Results

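Ppm1g_R is a rescue clone of the mouse embryonic stem cell (ESC) line Ainv15, which expresses the reverse tetracycline transactivator (rtTA). An shRNA depletes the endogenous Ppm1g mRNA in this clone, and a lentiviral Ppm1g cDNA that escapes the shRNA is expressed while doxycycline (Dox, 1 μg/ml) is present, from a tetracycline-responsive promoter followed by an IRES and eGFP. The results below compare the 3 Ppm1g_R −Dox arrays, taken 5 days after Dox was withdrawn, with the 3 Ppm1g_R +Dox arrays. These 6 arrays were chosen by their titles among the 30 of the series. The other 24 arrays hold Control_R, Bub1b_R, Chek1_R and Ppp2r1b_R, each with and without Dox in 3 arrays. They are used to show where Ppm1g_R differs, and they also enter the normalization, the detection filter and the estimate of the spread. All are rescue clones of the same rtTA line that were grown in Dox before its withdrawal. The labels describe maintenance on primary mouse embryonic fibroblasts with LIF, and the study describes the array cultures as feeder-free. Although several clones per gene product were established, the labels give 1 clone name per condition. They do not say whether replicates came from separate cultures. The p-values therefore measure the spread between replicate arrays, estimated over all 30 arrays, which may be technical. In bulk RNA, fewer cells of a type and less RNA per cell cannot be told apart.

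Ppm1g encodes a nuclear serine/threonine phosphatase of the PPM family, which needs magnesium or manganese. It is known for dephosphorylating splicing and snRNP assembly factors, for its part in releasing the elongation factor P-TEFb from its inhibitory RNP, and for acting on histones. Mouse ESCs keep a network of transcription factors around Pou5f1, Sox2 and Nanog. When they leave that state towards mesoderm they pass through a primitive-streak-like stage driven by Wnt, Nodal, BMP and FGF, in which T (Brachyury), Mixl1, Eomes and Evx1 come on.

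The array is the Illumina mouse WG-8 BeadChip, on which each probe gives an average bead intensity and a detection p-value against negative controls. Between 12198 and 12798 of 25697 probes had a detection p under 0.05 on the 6 Ppm1g_R arrays. Within a condition these arrays correlated across probes with r from 0.9935 to 0.9966, and across the conditions with r from 0.9877 to 0.9906. Levels below are normalized log2 intensities, and a change is the mean level without Dox minus that with Dox. A gene was called changed at an adjusted p under 0.05 in the limma fit of all 30 arrays and a change of at least 1.5-fold. "Rose" and "fell" are used only for called genes. The brightest probe stands for a gene, and levels of different probes cannot be compared with each other. The weakest detected probe read 27.8 to 58.1 in Ppm1g_R, Chek1_R and Ppp2r1b_R but 12.9 to 20.9 in Control_R and Bub1b_R. The Control_R arrays also have sample numbers far below those of the other clones. The study credits that clone to earlier work and lists earlier public arrays among its data. A comparison of Ppm1g_R with Control_R therefore also crosses the signal range and this earlier origin, and the clone cannot be told apart from them there. The Chek1 mRNA was not lower without Dox on the arrays labelled Chek1_R, where it changed by 0.71. The study's Chek1 rescue cDNA lacks the shRNA target, and whether the Chek1 probe measures that cDNA was not tested. The label is thus left in doubt, and comparisons that use those arrays are also given without them.

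The shRNA target in the Ppm1g mRNA and the same stretch of the rescue cDNA are shown because they define the 2 conditions. Both were taken from the study's oligonucleotide lists, are written 5′ to 3′, and have in capitals the bases at which they differ.
shRNA target: gccttgtaCtgTgcCaaatat
rescue cDNA: gccttgtaTtgCgcTaaatat
Counted from 1 at the 5′ end of the target, the 3 substitutions are C9T, T12C and C15T, with the base of the target first.

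Ppm1g mRNA was lower in every Ppm1g_R array without Dox than in any other array of the series. Its log2 level was 9.76, 9.76 and 9.82 with Dox and 8.61, 8.40 and 8.59 without Dox. The groups did not overlap, and the lowest of the 24 arrays of other clones was at 9.19, in Ppp2r1b_R with Dox. The change was −1.25 (SE 0.10, adjusted p 4.5e-09), a 2.37-fold fall, and 9 of 9 pairs of 1 array with and 1 without Dox had this direction. In Control_R the change was 0.16 (adjusted p 0.38). With Dox, Ppm1g_R was 0.33 below Control_R (log2 difference −0.33, adjusted p 0.0074), which is under the 1.5-fold limit, and without Dox the difference was −1.74 (adjusted p 5.7e-13). Ppm1g has 1 probe on this array, and its sequence was not at hand, so how much of the level with Dox comes from the rescue cDNA was not tested.

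**Figure D1:**
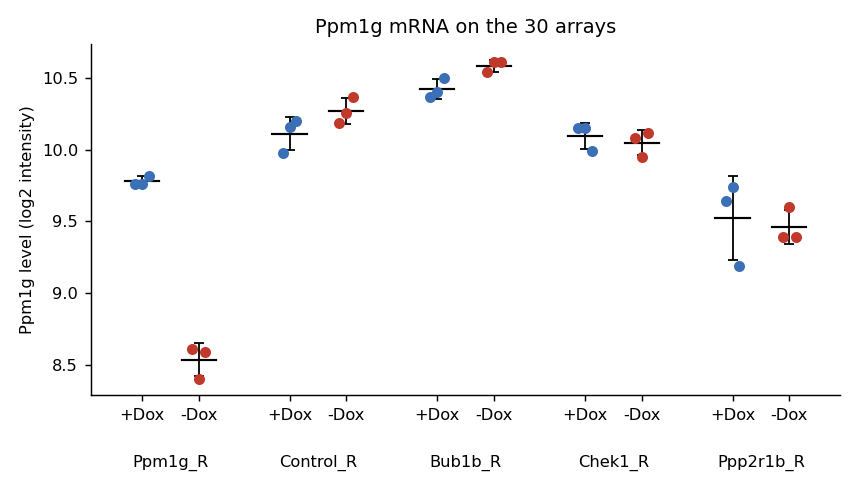
Ppm1g level (log2 intensity, vertical axis) on each of the 30 arrays, by clone and Dox. Points are arrays, blue with and red without Dox, horizontal lines are means of 3 arrays and bars are SDs. The 3 Ppm1g_R arrays without Dox lie between 8.40 and 8.61, below all other arrays, which start at 9.19.

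Of the 15151 probes tested, 662 were called changed in Ppm1g_R (4.37%), 349 higher (2.3%) and 313 lower (2.07%). They stand for 589 genes, and all 9 array pairs agreed in direction for 650 of the probes. Most changes were small, since 87 probes reached 2-fold. In Control_R, 167 probes were called (1.1%), 107 higher (0.706%) and 60 lower (0.396%), and 19 of these were also among the 662 in the same direction. By genes this was 128 (1.15%), 78 higher (0.698%) and 50 lower (0.447%). By the brightest probe of each of 11177 genes, 518 were called in Ppm1g_R (4.63%), 272 higher (2.43%) and 246 lower (2.2%), with a median change over all genes of −0.009.

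The 15 largest rises held streak genes, interferon-inducible genes, muscle actins and defensin-related probes. Mixl1, a homeobox factor of the primitive streak, was detected on no array with Dox (5.22, 5.00 and 4.98) and on all 3 without (7.53, 7.40 and 7.20), which makes it at least 3.42-fold higher (adjusted p 3.2e-13). For this limit the bright group's mean was compared, array by array of the dim group, with the weakest detected probe or with the probe's own level if that was above it. A second Mixl1 probe moved by 2.24. Mfsd2 (now Mfsd2a), a lysolipid transporter, rose from 5.80, 5.76 and 5.78 to 7.35, 7.84 and 7.32, a change of 1.72 (SE 0.12). Il24, a cytokine gene, rose by 1.71, Evx1 by 1.60, the neuropeptide precursor Vgf by 1.5, and Nrp1, a coreceptor for semaphorins and VEGF, was at least 2.27-fold higher, having been detected on no array with Dox. Wnt5a, which encodes a Wnt ligand, rose by 1.34, and its second probe by 0.72. The rest of these genes are described with their groups below.

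The 15 largest falls included Ppm1g. Acss1, the mitochondrial acetyl-CoA synthetase, went from 11.35, 11.42 and 11.30 to 9.89, 9.92 and 9.97, a change of −1.43 (SE 0.06, adjusted p 1.9e-14). Txnip, the thioredoxin-interacting protein that restrains glucose uptake, went from 12.28, 12.36 and 12.17 to 11.10, 10.99 and 10.95, a change of −1.25 (SE 0.07, adjusted p 4.1e-12). In neither gene did the groups overlap. Acss1 fell by 0.67 in Control_R as well, while Txnip gave 0.13 there. Rab3il1, an exchange factor for Rab GTPases, was detected on all 3 arrays with Dox and on none without and was at least 2.14-fold lower (it also fell in Control_R, by 0.74), and Bhlhb8 (now Bhlha15), a factor of secretory cells, at least 2-fold lower. A dimmer probe of Rab3il1 was not called (−0.34). Cplx1, a complexin of synaptic vesicle release, changed by −1.48, the protease inhibitor gene Spink10 by −1.40, and EG434729 (now Fthl17f, a ferritin-like gene with close relatives its probe may also bind) by −1.36. The oocyte gene 4930424G05Rik (now Patl2) changed by −1.35, Dmrtc2, a DM-domain gene of germ cells, by −1.30, and Si (now Pmel, of melanosomes) by −1.27 on one probe and −1.26 on the other. Gpx2, a glutathione peroxidase, changed by −1.24, LOC100045403 by −1.18, Defb42, a beta-defensin, by −1.14 and Mag, a myelin glycoprotein, by −1.13.

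**Figure D2:**
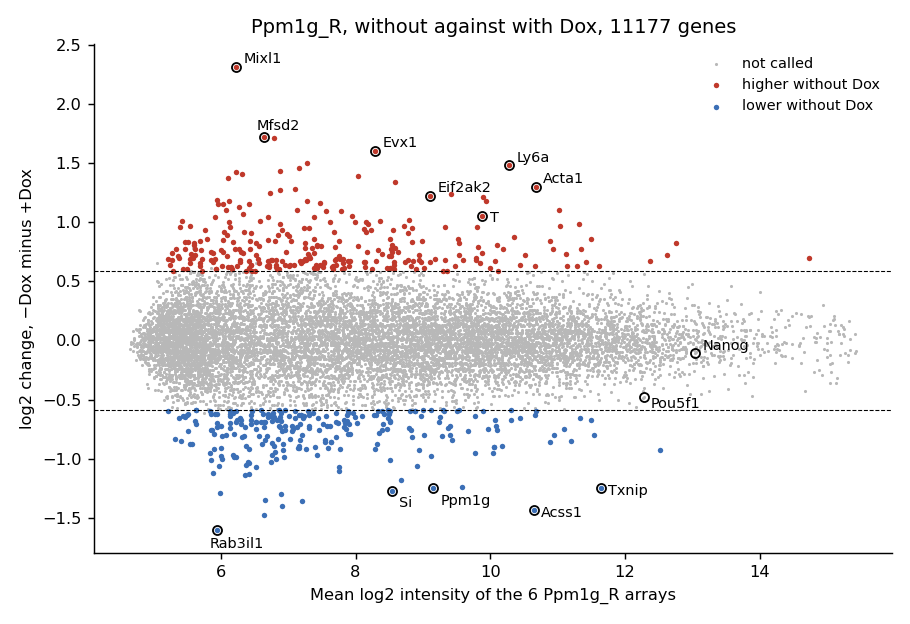
Change without against with Dox in Ppm1g_R (log2, vertical axis) against the mean log2 intensity of the 6 arrays, 1 point per gene (11177 genes). Red genes were called higher (272), blue lower (246), and dashed lines mark 1.5-fold. Mixl1 stands at the top, Rab3il1 at the bottom, and Nanog and Pou5f1 lie between the lines.

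Values were also read by gene list, 32 lists in all. The lists in which the largest shares were called were defensin-related genes, primitive streak and mesoderm, and trophectoderm, all upward, against 2.43% of all genes. Ribosomal proteins, the respiratory chain, DNA replication and checkpoint genes, histones, cholesterol synthesis, genes of the 2-cell-like state and the known substrates and partners of Ppm1g had no called member. At an unadjusted limma p under 0.05 with no fold limit, 23 of 65 respiratory chain genes passed (20 of them lower), 17 of 58 replication genes (11 lower), 13 of 53 ribosomal protein genes (9 lower), 10 of 25 cholesterol genes (9 lower), 9 of 42 histone genes, 5 of 19 substrates and partners and 2 of 10 genes of the 2-cell-like state. Over all 11177 genes, 4017 passed this limit (35.9%), 1982 of them higher and 2035 lower. Counted without regard to direction, the shares of these lists are near or below that of all genes. By direction they differ from all genes, since the respiratory chain and cholesterol genes that passed were mostly lower. None of these lists held a change above 0.55 in size.

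**Figure D3:**
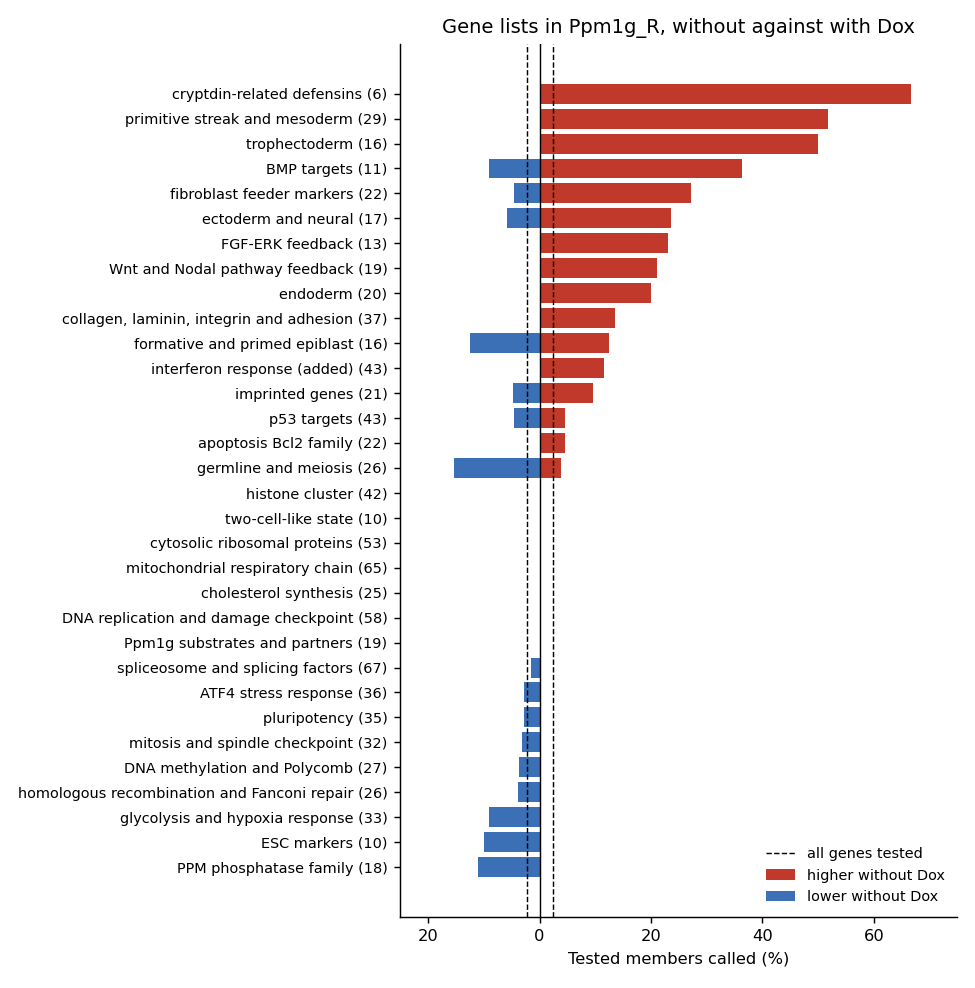
Share of the tested members of each gene list called in Ppm1g_R (percent, horizontal axis), to the right higher and to the left lower without Dox, with the number of tested members in parentheses. Dashed lines mark the shares over all genes, 2.43% higher and 2.2% lower. The streak list had 15 of 29 members higher and none lower, and 7 lists had no called member.

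Of 29 tested primitive streak and mesoderm genes, 15 rose and none fell (51.7%), with a median change of 0.59. Of the 29, 7 were detected on no array with Dox, so no fall could be seen in those 7. In Control_R 2 of them rose, T and Fgf8, and Cdx1 fell by 0.69. Homeobox and T-box factors were prominent among the risers. Evx1, of the posterior streak, had levels of 7.53, 7.41 and 7.52 with Dox and 9.10, 9.24 and 8.92 without (change 1.60, SE 0.14, adjusted p 1.4e-08). Cdx2, a factor of the posterior embryo and of trophectoderm, had 9.17, 9.46 and 9.25 with and 10.58, 10.50 and 10.43 without Dox (1.21, SE 0.15). T, the founding T-box gene of nascent mesoderm, had 9.30, 9.37 and 9.41 with and 10.47, 10.41 and 10.34 without (1.05, SE 0.11, adjusted p 1.6e-07). In all 3 genes the arrays without Dox lay above all arrays with Dox. T changed by 0.75 in Control_R as well, and the difference of the 2 changes, 0.30, was not called. Eomes rose by 1.18 with detection on 1 array with and 3 without Dox. Pdgfra, a receptor of paraxial mesoderm and primitive endoderm, was at least 1.92-fold higher and the LIM factor Isl1 at least 1.79-fold higher, each detected on no array with Dox and on all 3 without. Mesp1 and Lhx1 were likewise undetected with Dox, and Lhx1 was detected on 2 of 3 arrays without it.

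Several ligands and receptors of the list rose too. Wnt3, which starts the streak in the embryo, rose by 0.95, Wnt3a by 1.15 and Wnt8a by 1.15. Agtrl1 (now Aplnr), a receptor of early mesoderm, rose by 1.13, and the chemokine gene Cxcl12 by 0.59, on the edge of the fold limit and lost with an offset of 50 (0.57). The members that were not called include Fgf8 (0.43), Bmp4 (0.44), Snai1 (0.43), Gata2 (0.51), Gata3 (0.52), Cdx1 (0.47, though a second probe rose by 0.71), Lefty1 (0.21) and Lefty2 (0.38), all between 0 and the limit, and Foxh1 (−0.45). Kdr, a marker of blood and vessel precursors, and Nkx1-2 were detected on none of the 6 arrays.

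**Figure D4:**
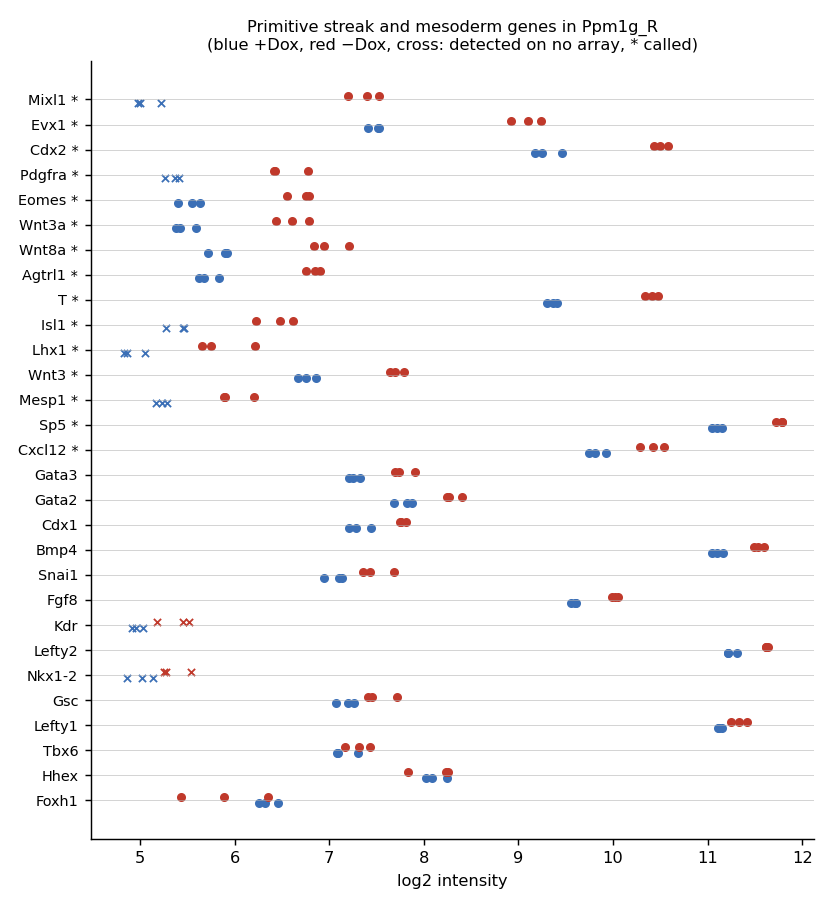
Log2 intensity (horizontal axis) of the 29 tested primitive streak and mesoderm genes on the 6 Ppm1g_R arrays, blue with and red without Dox, ordered by change. Crosses mark a condition in which the probe was detected on no array, and asterisks the 15 called genes. The blue and red points are separate in each of these 15.

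Promoters of these genes were searched for CTTTGAT, a core of the sites bound by TCF/LEF factors, the DNA-binding partners of beta-catenin, on both strands from 250 bases before to 50 after the start site. The motif was chosen after the changes had been seen. Of the 15 genes that rose, 12 had a promoter in the RefSeq table (GRCm38.p6), and 3 of these held the motif. None of 9 uncalled members did, and 4.29% of all 27025 genes did. A second motif, the core of the interferon-stimulated response element, was searched in the same way in the interferon list described below. It was in 1 of 3 members that rose, 15 of 29 that were not called and 3.99% of all genes. The matches of CTTTGAT in streak genes are shown with the motif, or its reverse complement, in capitals.
Sp5, chr2:70474811-70474833, plus strand: aaggccccCTTTGATcaggaaaa
Mesp1, chr7:79793607-79793629, minus strand: cgagccggCTTTGATatgctgat
Cxcl12, chr6:117168364-117168386, plus strand: ctgggaagATCAAAGgtctcagc
Sp5, a zinc finger factor that Wnt signalling switches on, rose from 11.15, 11.04 and 11.10 to 11.78, 11.78 and 11.72 (0.66), a call lost with arrays scaled to one median (0.53).

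In the lists of Wnt and Nodal, BMP and FGF-ERK signalling most members were not called, and the called ones rose except for Id4. Of 19 Wnt and Nodal feedback genes 4 rose and none fell (21.1%). Notum, a secreted Wnt deacylase, had levels of 8.08, 8.17 and 8.00 with Dox and 8.94, 8.98 and 9.14 without (0.93, SE 0.13). Ccnd1, encoding cyclin D1, had 11.11, 11.07 and 10.99 with and 11.81, 12.00 and 11.95 without (0.86, SE 0.06, adjusted p 7e-10), and its other probes moved by 0.76 and 0.79. The groups did not overlap in either gene. Axin2, the negative regulator of beta-catenin, rose by 0.60, a call lost with an offset of 50 or with arrays scaled to one median, while Lef1 (0.52), Nodal (0.01) and Dkk1 (0.11) were not called.

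Among 11 BMP targets 4 rose and 1 fell (45.5%). The risers were the homeobox gene Msx1 (1.01) and the inhibitors of basic helix-loop-helix factors Id3 (1.00), Id1 (0.81) and Id2 (0.68). Id1 was the most even of them, at 9.63, 9.73 and 9.72 with Dox and 10.57, 10.52 and 10.43 without (adjusted p 3.7e-10). Id4 fell by 0.63, and a second probe of Id2 was not called (0.37). Of 13 genes of FGF-ERK feedback 3 rose and none fell (23.1%). These were Phlda1 (8.77, 8.89 and 8.74 with and 10.06, 10.16 and 9.90 without Dox, change 1.24), the Ets factor Etv4 (7.69, 7.62 and 7.66 with and 8.58, 8.66 and 8.74 without, change 1.00, adjusted p 1.7e-10) and the ERK phosphatase Dusp4 (0.84). All 3 were separate between the conditions. Dusp6 (0.53, though a dimmer probe rose by 0.85), Spry4 (0.45), Etv5 (−0.14) and the immediate early gene Egr1 (−0.41) were not called.

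Of 16 trophectoderm genes 8 rose and none fell (50%). Besides Cdx2 and Eomes, which the streak list also holds, these were the simple epithelial keratins Krt8 (12.41, 12.32 and 12.32 with, 13.22, 13.14 and 13.14 without Dox, change 0.82), Krt18 (0.63) and Krt19 (0.72), Bmp8b (0.82), Ly6a and Plac1, the last undetected with Dox and at least 1.25-fold higher without. Control_R gave 0.49 for Krt8 and 0.37 for Krt18, neither called, and the difference of Ppm1g_R from Control_R was not called for either keratin. Of the 16 genes 4 had a more positive change in Ppm1g_R than in Control_R and none a more negative one. The median change of the list in Control_R was 0.29. Trophectoderm genes that were not called include Tcfap2c (0.16), Tead4 (0.14) and Ascl2 (−0.30). The endoderm list had 4 of 20 higher (20%), namely Pdgfra, Tmprss2 (0.69, and 0.74 in Control_R), Cxcr4 (0.67, a call lost without any of 4 arrays) and the basement membrane collagen gene Col4a1 (0.64), whereas Gata6 (0.37), Gata4 (0.33) and Sox17 (0.08) were not called. In the ectoderm and neural list 4 of 17 rose and 1 fell (29.4%), Isl1, Krt8, Krt18 and Sox21 (7.26, 7.35 and 7.52 with, 7.94, 8.00 and 8.24 without Dox, change 0.69) against Otx2.

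Of the 15 largest rises 2 were muscle actin genes, and a few matrix and adhesion genes rose. Acta1, skeletal muscle actin, had levels of 9.99, 10.04 and 10.06 with Dox and 11.31, 11.26 and 11.42 without (1.30, SE 0.07, adjusted p 1.6e-12). Actc1, cardiac actin, had 5.48, 5.52 and 5.83 with and 7.03, 6.93 and 7.12 without (1.41). Tagln, the actin-binding transgelin of smooth muscle, had 6.32, 6.25 and 5.99 with and 7.12, 7.40 and 7.15 without (1.04). None of the 3 overlapped between the conditions, and Control_R gave 0.09 for Acta1, 0.48 for Actc1 and −0.25 for Tagln. Acta2, smooth muscle actin, which was singled out after its values had been seen, rose by 0.72 (adjusted p 1.7e-09), and its 3 other probes by 0.81 to 0.88. Of 37 collagen, laminin, integrin and adhesion genes 5 rose and none fell (13.5%), Cd44, the hyaluronan receptor (1.07), Cyr61 (now Ccn1, 0.97, and 0.73 in Control_R), Col1a1 (0.91), Col4a1 and Tgfb1 (0.64). The other tested probes of Cd44 were not called (0.20 and −0.07).

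Fibroblast markers were read beside these because feeders were part of the cells' upkeep. Of 22 tested, 6 rose and 1 fell (31.8%): Tagln, Col1a1, Timp3 (0.84), Dcn, Cd248 (0.76) and Acta2 rose, and Thy1 fell by 0.61. Dcn was detected on no array with Dox and on 2 without. The summed level of the list was 14460 to 15320 with Dox and 18800 to 19970 without, and 13780 to 14610 in Control_R over both conditions. This sum is of unlogged levels, so bright probes such as that of Acta2 (log2 12.26 with and 12.98 without Dox) weigh most. The median log2 change of the 22 genes was 0.29. Prrx1 and Lox, defining fibroblast genes, were detected on none of the 6 arrays, Mmp2 (−0.18), Fbln1 (−0.20) and Loxl1 (−0.01) were not called, and the part of fibroblasts in the rises of mesoderm, matrix and contractile genes was not tested. The summed level of the 10 ESC markers overlapped, at 69490 to 79340 with and 67350 to 73700 without Dox.

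Of 35 tested pluripotency genes 1 was called (2.86%, against 4.63% of all genes), with a median change of −0.09 against −0.009 over all genes, so the count does not set the list apart. The called gene was Fgf4, the main FGF ligand of ESCs, which went from 8.17, 8.35 and 8.19 to 7.54, 7.44 and 7.48 (−0.75, adjusted p 2.6e-06). Pou5f1 had levels of 12.59, 12.53 and 12.44 with Dox and 12.20, 11.85 and 12.08 without. Its change of −0.48 (SE 0.09, adjusted p 0.00024) was under the fold limit, although the groups did not overlap, and it was called with arrays scaled to one median (−0.59). Nanog had 13.23, 12.98 and 13.10 with Dox and between 12.95 and 13.02 without (−0.11, SE 0.10, adjusted p 0.47), so its groups overlapped. Of the other genes that make up the core network, Esrrb changed by −0.30, Tcl1 by −0.36, Tbx3 by −0.13, Klf4 by −0.10, Sox2 by 0.05 and Zfp42 by 0.09, none of them called. Among 16 genes of the formative and primed epiblast 2 rose and 2 fell (25%). Otx2, a homeobox factor of the anterior epiblast, went from 10.02, 10.04 and 10.10 to 9.25, 9.29 and 9.33 (−0.77, adjusted p 1.7e-08), and Car4, a carbonic anhydrase, fell by 0.75. Krt18 and Epha1 (0.60) rose, each on the edge of the limit, and Fgf5, the usual marker of primitive ectoderm, gave 0.36 (adjusted p 0.051).

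Of 33 genes of glycolysis and the hypoxia response 3 fell and none rose (9.09%). Hk1, hexokinase, went from 7.61, 7.55 and 7.67 to 6.82, 6.81 and 6.55 (−0.89). Aldoc, aldolase C, went from 10.52, 10.40 and 10.52 to 9.59, 9.91 and 9.66 (−0.76, adjusted p 2.7e-07). Ndrg1, a gene that hypoxia induces, went from 8.69, 8.68 and 8.73 to 8.10, 8.24 and 7.97 (−0.60). All 3 were separate between the conditions, and the central enzymes Gapdh (−0.04), Eno1 (0.02), Ldha (0.22) and Pgk1 (−0.12) were not called. Germline genes had 4 of 26 lower and 1 higher (19.2%): Dmrtc2, the kinase gene Aurkc (−0.76), the Piwi gene Piwil2 (−0.71) and Tex14 (−0.63) fell and Nanos3 (0.89) rose. Of 21 imprinted genes Cxx1c (now Rtl8c, 1.42) and Igf2 (0.70, but 0.25 with arrays scaled to one median, and not called with only the 6 Ppm1g_R arrays) rose, and Slc22a18 (−0.88) fell. A dimmer probe of Slc22a18 was not called (0.11).

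The PPM family, the machinery Ppm1g acts on and stress genes are read here against 4.63% of all genes called. Of 18 tested PPM family members 2 were called (11.1%), Ppm1g itself and Ppm1j (−0.68), with levels of 7.26, 7.09 and 6.96 with Dox and 6.97, 6.08 and 6.22 without, which overlapped and lost the call without either of 2 arrays. Ppm1f gave 0.36, Ppm1d, which p53 induces, 0.13, and Ppm1a and Ppm1b 0.03 and 0.08, none called. Of 67 splicing genes 1 was called (1.49%), the helicase gene Dhx16 (−0.60), which lost the call with an offset of 50. Of 19 substrates and partners of Ppm1g none was called, with changes from −0.21 to 0.55, the latter in Hexim1, whose product holds P-TEFb inactive. Among 43 p53 targets 2 rose and 2 fell (9.3%), Ccnd2 (0.93) and Sfn (0.72, and 0.62 in Control_R) against Gdf15 (−0.69) and Tnfrsf10b (−0.68). The p53 share is above that of all genes, but its calls went both ways and its median change was −0.06. The other 39 p53 targets were not called, among them Cdkn1a (−0.11), Mdm2 (0.21), Ccng1 (−0.06) and Bbc3 (−0.09). The shares of the splicing, ATF4, apoptosis, mitosis, repair and Polycomb lists are below that of all genes. The ATF4 list had 1 of 36 lower, Ddit3 (−0.67), the apoptosis list 1 of 22 higher, Casp8 (0.69), the mitosis list 1 of 32 lower, Aurkc, and the repair list 1 of 26 lower, Ube2t (−0.67). Polycomb and DNA methylation genes had 1 of 27 lower, Phf19 (−0.61). Leaving out 1 Ppm1g_R array ended the calls of Dhx16, Tnfrsf10b, Ddit3, Casp8, Ube2t and Phf19.

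Of 6 tested defensin-related genes 4 rose (66.7%), Defcr-rs7 (7.37, 7.39 and 7.28 with, 8.79, 8.65 and 8.77 without Dox, change 1.39), AY761185 (1.28), LOC100044289 (1.18) and Defcr-rs10 (at least 1.91-fold higher). The array holds 13 genes of this list. Of the 6 tested, 2 were detected on no array with Dox, so no fall could be seen in those 2. These Paneth cell peptide genes are near-identical copies, so which of them the probes measure is uncertain, and LOC100044289 rose by 1.46 in Control_R too. An interferon list, drawn up once the values were known, had 5 of 43 members higher and none lower (11.6%), with a median of 0.03. Control_R had the same count, 5 higher and none lower, with a median of 0.12, though of the 5 genes only Ly6a was shared. Against Control_R, 4 members were more positive and 4 more negative in Ppm1g_R. Ly6a (9.62, 9.51 and 9.50 with, 10.92, 11.03 and 11.13 without Dox), a surface antigen of the Ly6 family, rose by 1.48, and 0.68 in Control_R. Samd9l, an interferon-induced antiviral gene, rose by 1.46 and Ly6c1 by 1.43. Eif2ak2, the kinase PKR that double-stranded RNA activates, went from 8.37, 8.49 and 8.65 to 9.58, 9.72 and 9.86 (1.22, adjusted p 1.2e-09). Mx2, barely detected, gave 0.59 with detection on 1 array. Members that were not called include Usp18 (0.14), Ifit3 (0.36), Oasl2 (0.05) and Stat2 (−0.48), and Irgm was not called on its brightest probe (0.11) but rose on another (0.74).

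Set against Control_R, the change in Ppm1g_R differed for 799 probes (5.27%), 414 more positive (2.73%) and 385 more negative (2.54%). With arrays scaled to one median the split was 310 and 546. By genes, 621 differed (5.56%), 320 more positive (2.86%) and 301 more negative (2.69%). The 8 largest positive differences were Mixl1 (2.32), Evx1 (1.88), Alg8 (1.84), Il24 (1.70), Ly6c1 (1.63), AY761185 (1.5), Scara3 (1.47) and Tatdn2 (1.36). Alg8, of protein N-glycosylation, rose by 1.18 in Ppm1g_R and gave −0.66 in Control_R, so part of its difference lies in the control clone, and its 3 dimmer probes were not called in Ppm1g_R (0.27 to 0.44). The same holds for Tatdn2, at 0.68 and −0.68, whereas the scavenger receptor gene Scara3 rose by 1.25 in Ppm1g_R and gave −0.22 in Control_R. The 8 largest negative differences were Lypd2 (−1.67), EG434729 (−1.56), Spink10 (−1.46), Ppm1g (−1.41), Txnip (−1.38), LOC639910 (−1.34), Si (−1.31) and LOC625360 (−1.31). Spink10 was detected on no array of any other clone and was tested only through its signal in Ppm1g_R, so no fall could be seen elsewhere. Mixl1 and AY761185 were likewise undetected on all 6 Control_R arrays. For LOC639910 and LOC625360 the difference came from rises of 1.33 and 1.17 in Control_R, with −0.01 and −0.14 in Ppm1g_R. Of the streak list, 15 members had a more positive change in Ppm1g_R than in Control_R and none a more negative one. They were 12 of the 15 that rose, without T, Sp5 and Cxcl12, together with Snai1 (0.84), Gata2 (0.74) and Cdx1 (1.15), none of which was called within Ppm1g_R. Genes of the 2-cell-like state went the other way, with 5 of 10 lower in this comparison. Those 5, AF067061, Tcstv1, Tcstv3, Gm428 and Gm397, rose by 0.83 to 1.09 in Control_R, and none of them was called in Ppm1g_R. Of the 35 pluripotency genes 1 was more positive and 2 were more negative than in Control_R. Among the 10 ESC markers 2 were more negative and none more positive, against 2.69% of all genes more negative. Of the 20 endoderm genes 1 was more positive and 1 more negative.

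Set against the mean change of Bub1b_R, Chek1_R and Ppp2r1b_R, 466 probes differed (3.08%), 185 more positive (1.22%) and 281 more negative (1.85%) in Ppm1g_R. With arrays scaled to one median the split was 124 and 466. Without the arrays labelled Chek1_R, 389 probes differed, and 639 with only the clones of the same signal range as Ppm1g_R. By genes, 368 differed (3.29%), 150 more positive (1.34%) and 218 more negative (1.95%). Acta1 differed by 1.28 and by 1.16 without the Chek1_R arrays, having changed by 0.29 in Bub1b_R and −0.01 in Ppp2r1b_R. Acta2 differed by 0.85 (0.73 without the Chek1_R arrays), Actc1 by 0.63 (0.67) and Tagln by 0.81, a call that needed the Chek1_R arrays (0.62 without them). The growth-related genes Etv4 (1.14, and 1.09 without the Chek1_R arrays) and Ccnd1 (0.70 and 0.82) and the ectoderm gene Sox21 (1.02 and 1.36) also differed upward. So did Vgf (1.22 and 1.10), the peptidase gene Dpp4 (1.29 and 0.99), Centa1 (now Adap1, 1.31 and 1.34), the unconventional myosin gene Myo1f (1.26 and 1.25), LOC100046802 (1.21 and 1.13) and Rbm3, a cold-inducible RNA-binding protein gene (1.12 and 1.22). Of these, Myo1f (0.36) and LOC100046802 (0.26) were not called within Ppm1g_R, and Centa1 lost its call there without either of 2 arrays. On a dimmer probe the difference from the 3 clones was not called for Centa1 (0.05), Rbm3 (0.43) or Sox21 (−0.03).

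The more negative differences were of 2 kinds. Genes that fell in Ppm1g_R and moved less that way, or the other way, in the other clones include Txnip (−0.95), Si (−0.97), Ndrg1 (−1.24) and Aldoc (−0.70), each also called without the Chek1_R arrays. Txnip changed by −0.60 in Bub1b_R and 0.06 in Ppp2r1b_R, and Ndrg1 by 0.52 and 0.87. The second kind are genes that moved more in the other clones than in Ppm1g_R. T differed by −1.84, and by −1.06 without the Chek1_R arrays, since it changed by 1.05 in Ppm1g_R, 2.31 in Bub1b_R and 1.90 in Ppp2r1b_R. Fgf8 differed by −1.81 (−1.12) and Defcr-rs7 by −1.72 (−0.64), LOC100044289 by −2.06 (−0.91), LOC100048346 by −2.32 (−1.50) and the peptidoglycan receptor gene Pglyrp1 by −1.79 (−1.34). Of the streak list 9 members were more negative in Ppm1g_R and 1, Wnt3a, more positive (0.80), and without the Chek1_R arrays 5 and 1. Mixl1 was not among them, with a difference of 0.21 (adjusted p 0.31), which averages clones that differ. Its change was 3.24 in Bub1b_R and 2.75 where arrays carry the Chek1_R label. In Ppp2r1b_R it was 0.31, with no detection in either condition. The difference was 0.53 without the Chek1_R arrays (adjusted p 0.0097, under the fold limit) and 0.78, a call, without the Bub1b_R arrays.

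The 2 largest negative differences were in Usp18 and D12Ertd647e. Usp18, which removes the ubiquitin-like modifier ISG15 from proteins, had levels of 8.45, 8.67 and 8.50 with Dox and 8.68, 8.58 and 8.78 without in Ppm1g_R. Its change of 0.14 stood against 1.55 in Bub1b_R, 1.96 in Ppp2r1b_R and 5.23 on the arrays labelled Chek1_R, a difference of −2.77, and of −1.61 without the last. D12Ertd647e (now Ifi27) changed by −0.34 in Ppm1g_R, against 1.16 in Bub1b_R and 1.69 in Ppp2r1b_R, with a difference of −2.55 (−1.76). A separate entry that the array labels Ifi27 differed by −1.34 (−0.97). The interferon list below counts that entry and not D12Ertd647e. Of the 43 interferon genes 18 were more negative in Ppm1g_R than in the mean of the other clones and none more positive, against 1.95% of all genes more negative. Without the Chek1_R arrays 10 were more negative, where 229 of all 15151 probes were. The list was drawn up after the data had been seen, so these counts are a description. Eif2ak2 (0.21), Ly6a (0.05) and Ly6c1 (−0.06) were not among the 18.

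**Figure D5:**
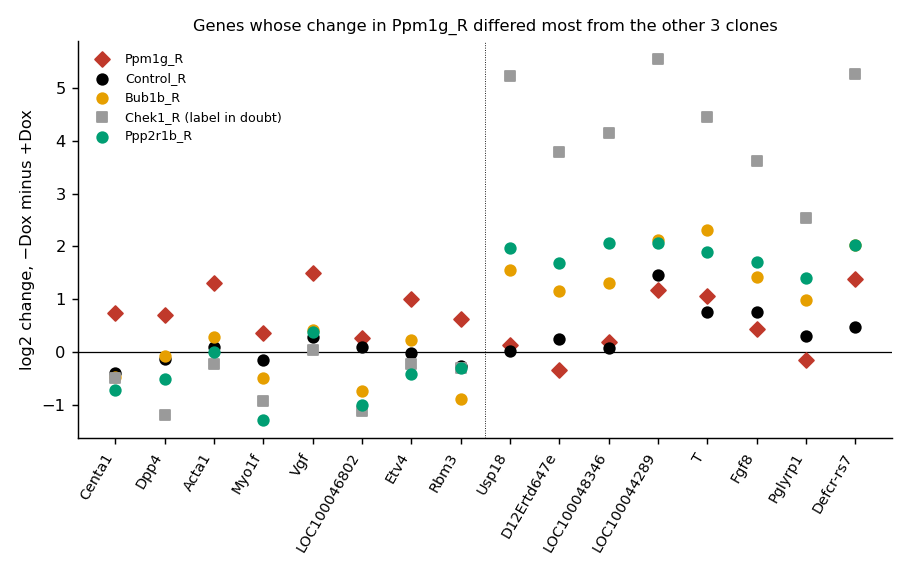
Change without against with Dox (log2, vertical axis) in each of the 5 clones for the 8 genes with the most positive (left of the dotted line) and the 8 with the most negative difference (right) between Ppm1g_R (red diamonds) and the mean of Bub1b_R, Chek1_R and Ppp2r1b_R. Grey squares are the arrays labelled Chek1_R, whose label is in doubt because Chek1 mRNA was not lower without Dox. Ppm1g_R is above the 3 clones for the left genes and below them for the right genes.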

How the data were processed

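The authors deposited, for each of 25697 probes on 30 arrays, a background-subtracted signal intensity that was not normalized between arrays, and a detection p-value. The submitters' processing notes name lumi, and the settings are not given in the sources used here. Some deposited detection p-values were spreadsheet dates, 46 on Ppm1g_R −Dox replicate 2 and 14 on a Bub1b_R array. Of these 28 and 6 were converted back, and 18 and 8 took the value of the probe nearest in signal on the same array.

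Intensities were normalized with neqc (limma 3.58.1, R 4.3.3, offset 16, quantiles over 30 arrays, log2). Kept were the 15151 probes, for 11177 of 18097 symbols, that 3 or more arrays detected (detection p under 0.05). A limma fit took 10 condition means with 20 residual and 3.38 prior degrees of freedom, with Benjamini-Hochberg adjustment across the tested probes. The number of arrays limits the precision. The brightest probe stands for a gene. Of 135 named genes 37 had more than 1 tested probe. Of these 14 had probes that differed in the call, and none had probes called in opposite directions. Older symbols were matched to RefSeq (14094 current, 3047 through a synonym, 956 unmatched).

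The arrays, gene lists, tests and named genes were chosen with earlier results of these data known, and the interferon list and the motif after the values had been seen. Named are the PPM family, the 15 largest rises and falls with 9 of 9 array pairs in the direction, up to 5 called members per list and direction, the pluripotency and lineage genes that the study measured by qRT-PCR, and the 8 largest differences in each direction from Control_R and from the other 3 clones. Others are named as examples of uncalled list members. Tested on simulated data (15151 probes, 200 of them shifted), the fit recovered 98% of shifts of 1 log2 unit with 1 false call for Ppm1g_R, 87% with 7 for the difference from Control_R, and 98% with 6 for that from the other clones. The simulation used normal noise of the fitted spread and left out the normalization. Shifts under 1 log2 unit were not simulated, and the median size of the called changes in Ppm1g_R was 0.73.

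Alternatives were scaling to one median, raw signals floored at 1 without any correction, offsets of 50 and 200, no detection filter or a stricter one (all 3 arrays of some condition, p under 0.01), leaving out each array, a replicate block, only the arrays compared, a limit of 2-fold or none, the methods' t-test, other repairs of the dates, no Chek1_R arrays and the mean of all probes. The comparison without Bub1b_R was added after seeing the data.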

Additional observations from a re-analysis of the deposited data

Results flagged for a closer look

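These results stand out because a test of the difference between clones found the change on Dox withdrawal in Ppm1g_R unlike that in Control_R (799 probes) or unlike the mean of Bub1b_R, Chek1_R and Ppp2r1b_R (466 probes). The change was above the mean of the 3 clones for Centa1 (1.31), Dpp4 (1.29), Acta1 (1.28), Myo1f (1.26), Vgf (1.22), LOC100046802 (1.21), Etv4 (1.14) and Rbm3 (1.12). It was below that mean for Usp18 (−2.77), D12Ertd647e (−2.55), LOC100048346 (−2.32), LOC100044289 (−2.06), T (−1.84), Fgf8 (−1.81), Pglyrp1 (−1.79) and Defcr-rs7 (−1.72). All 16 were also called without the arrays labelled Chek1_R. On a dimmer probe the difference from the mean of the 3 clones was not called for Centa1 (0.05) or Rbm3 (0.43). The change was above that of Control_R for Mixl1 (2.32), Evx1 (1.88), Alg8 (1.84), Il24 (1.70), Ly6c1 (1.63), AY761185 (1.5), Scara3 (1.47) and Tatdn2 (1.36). It was below that of Control_R for Lypd2 (−1.67), EG434729 (−1.56), Spink10 (−1.46), Ppm1g (−1.41), Txnip (−1.38), LOC639910 (−1.34), Si (−1.31) and LOC625360 (−1.31). Spink10 was undetected on all 24 arrays of the other clones, so no fall could be seen there. Groups of 3 arrays were not searched for outliers.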

How the results depend on the processing

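Ppm1g kept its fall under every alternative, from −0.94 with an offset of 200 to −1.30 with arrays scaled to one median. The offset, which shrinks the changes of dim probes, and the fold limit moved the counts most. In Ppm1g_R, 339 probes were called with an offset of 50, 101 with 200, 87 at 2-fold, 3541 with no fold limit and 441 by the methods' t-test after Benjamini-Hochberg (637 at its p under 0.05). The difference from Control_R gave 439, 121, 122 and 1821 in the first 4 of these settings, and that from the other clones 219, 63, 82 and 1800. Of 80 list genes called, 27 were called with an offset of 200, and of the 15 streak genes 12 with an offset of 50 and 5 with 200. The replicate block, for numbers whose arrays did not deviate together (r from −0.084 to 0.06 in Ppm1g_R), gave 655, 760 and 446 probes and 80 list genes. Leaving out 1 array gave 648 to 840 probes in Ppm1g_R, 710 to 873 for the difference from Control_R, 433 to 557 for that from the other clones, −1.18 to −1.28 for Ppm1g and 76 to 90 list genes. Of 131 named values called, 51 stayed called throughout and none changed sign, and 19 lost the call without 1 Ppm1g_R array, namely Axin2, Casp8, Centa1, Cxcl12, Cxcr4, Ddit3, Dhx16, Epha1, Krt18, Mx2, Ndrg1, Phf19, Ppm1j, Rbm3, Tex14, Tgfb1, Thy1, Tnfrsf10b and Ube2t. Signal over background limits the dim probes, and 45 called probes were detected on no array with Dox and 36 on none without.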
